A study of Mus musculus with 84 samples.

Results

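The xenobiotic response genes described here are 3 receptors (Ahr, Nr1i2 and Nr1i3), 5 cytochrome P450 enzymes (Cyp1a1, Cyp2c55, Cyp2c65, Cyp2s1 and Cyp3a13) and 2 efflux pumps (Abcb1a and Abcg2). They were chosen by name for their place in the pathway, with earlier results of these data known, and make up 10 of the 25494 genes in the RNA-seq count table. All animals were C57BL/6 mice and all material was labelled colon epithelium. RNA-seq covered male germ-free recipients that were fed a high fat diet (HFD) or a low fat diet (LFD) and were gavaged repeatedly over 5 weeks with bacteria from the stool of male donors. The recipients were HFDHFB (HFD, bacteria from HFD-fed donors), HFDLFB (HFD, bacteria from LFD-fed donors), LFDHFB and LFDLFB, with 3 RNA libraries each. ChIP-seq peak lists came from the same 4 recipient groups for H3K27ac, a mark of active promoters and enhancers (3 libraries each, 2 for HFDHFB), and from male and female mice kept long on the HFD or the LFD for H3K27ac and for H3K4me1, a mark of enhancers (3 libraries per mark, sex and diet). HNF4α, a nuclear receptor that binds DNA in gut and liver epithelium, was mapped in males of the long-term diets (2 libraries per diet). Each gene was read together with the peaks over its locus extended by 10 kb on both sides, which is called its window.

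Nr1i2 encodes PXR and Nr1i3 encodes CAR, nuclear receptors that pair with RXR and switch on drug-metabolising enzymes and pumps when foreign compounds, bile acids or hormones reach the cell. Ahr encodes the aryl hydrocarbon receptor, which pairs with ARNT on DNA and is activated by planar pollutants, dietary indoles and tryptophan products of gut bacteria. Cyp1a1 is its classical target. P450 enzymes oxidise lipophilic compounds and draw electrons from the reductase Por. Cyp3a13 belongs to the family that oxidises many drugs and steroids, Cyp2c55 and Cyp2c65 belong to the family that also oxidises arachidonic acid, and Cyp2s1 is an extrahepatic family 2 enzyme. Abcb1a encodes P-glycoprotein and Abcg2 the breast cancer resistance protein, ATP-driven pumps that return compounds from the cell to the gut lumen.

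The 12 RNA libraries held 39904191 to 48026846 counts each. A single RNA library stood apart, and results are given with and without it where it moves them. LFDHFB replicate 3 lay at 91.2 on the first principal component (42.5% of the variance), against −42.6 to 51.1 for the other 11 libraries. Its 6 posterior Hox genes, which mark the distal hindgut, summed to 29.8 CPM (counts scaled to a common library size), against 437 to 1070 CPM elsewhere. All 6 Hox genes were above 0 in every library. The small intestine markers (7 genes) of LFDHFB replicate 3 summed to 715 CPM, against 233 to 514 elsewhere. Its epithelial markers (8 genes) summed to 10500 CPM, level with the lowest of the other libraries (10500 to 15800). Its pancreas acinus markers (8 genes, 4 above 0 there) summed to 55.4 CPM, against 254 to 1100. Its hepatocyte markers (6 genes, 5 above 0 there) summed to 5.73 CPM, against 22.5 to 49.2. Smooth muscle markers (8 genes, 1240 to 7530 CPM) and leukocyte markers (8 genes, 145 to 389 CPM) were present in all libraries, in RNA from scraped colon. Adipocyte markers (8 genes) summed to 1330 and 3340 CPM in HFDLFB replicates 1 and 2, against 23.6 to 1040 CPM in the other 10. Fewer cells of a type and less RNA per cell cannot be told apart in such bulk samples.

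HNF4α was called close to a transcription start at 9 of the 10 genes, and 7 of those starts are printed here with 1 intronic site. The stretches were read from mm9 (NCBIM37), are written 5′ to 3′ on the strand of the gene, and hold the bases common to the peaks of a site outside annotated exons. Capitals mark the HNF4α core letters CAAAGGTCA, CAAAGGCCA, CAAAGTTCA or CAAAGTCCA, or their reverse complement, and GCGTG, the core of the AHR response element. The starts of the receptors and enzymes come first, with the number of libraries that held a peak.
Nr1i2, chr16:38294911-38295070, minus strand, a peak in 4 of 4 libraries: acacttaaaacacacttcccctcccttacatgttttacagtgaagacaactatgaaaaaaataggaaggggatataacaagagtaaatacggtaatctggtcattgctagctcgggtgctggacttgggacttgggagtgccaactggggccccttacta
Nr1i3, chr1:173143982-173144100, plus strand, a peak in 4 of 4 libraries: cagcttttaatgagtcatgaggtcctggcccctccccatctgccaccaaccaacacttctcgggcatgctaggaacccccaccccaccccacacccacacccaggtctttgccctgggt
Cyp2c55, chr19:39081289-39081473, plus strand, a peak in 4 of 4 libraries: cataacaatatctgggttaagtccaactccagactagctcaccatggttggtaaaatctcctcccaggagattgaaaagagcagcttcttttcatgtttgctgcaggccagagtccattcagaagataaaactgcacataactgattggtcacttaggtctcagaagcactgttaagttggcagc
Cyp2c65, chr19:39135284-39135481, plus strand, a peak in 3 of 4 libraries: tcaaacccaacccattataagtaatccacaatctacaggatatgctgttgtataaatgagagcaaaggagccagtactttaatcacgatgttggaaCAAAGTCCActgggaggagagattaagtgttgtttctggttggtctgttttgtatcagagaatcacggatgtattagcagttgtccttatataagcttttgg
Cyp3a13, chr5:138362998-138363137, minus strand, a peak in 4 of 4 libraries: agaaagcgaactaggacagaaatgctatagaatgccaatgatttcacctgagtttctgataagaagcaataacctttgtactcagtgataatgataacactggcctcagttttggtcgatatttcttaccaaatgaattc
Abcb1a start, chr5:8659879-8660076, plus strand, a peak in 3 of 4 libraries: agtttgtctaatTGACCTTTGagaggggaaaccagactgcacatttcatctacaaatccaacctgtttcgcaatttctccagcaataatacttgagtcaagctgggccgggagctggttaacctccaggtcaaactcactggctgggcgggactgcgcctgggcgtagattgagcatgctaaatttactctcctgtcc
Abcb1a intron, chr5:8668122-8668320, plus strand, a peak in 3 of 4 libraries: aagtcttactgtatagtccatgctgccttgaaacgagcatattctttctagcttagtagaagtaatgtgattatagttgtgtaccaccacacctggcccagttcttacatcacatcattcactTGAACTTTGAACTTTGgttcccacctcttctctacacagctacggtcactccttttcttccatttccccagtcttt
Abcg2, chr6:58590628-58590847, plus strand, a peak in 2 of 4 libraries: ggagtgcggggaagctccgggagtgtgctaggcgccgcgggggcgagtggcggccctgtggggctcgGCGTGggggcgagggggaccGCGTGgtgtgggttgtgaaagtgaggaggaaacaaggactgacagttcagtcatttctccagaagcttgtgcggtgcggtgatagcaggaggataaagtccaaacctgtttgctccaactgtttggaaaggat
The intronic Abcb1a stretch is shown because it holds 2 overlapping HNF4α cores, and the Abcg2 stretch because it holds 2 copies of GCGTG just inside an annotated start. The site at the Cyp2s1 start lay in annotated exons and is not printed.

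The members spanned the expression range of these libraries. On a per-length scale (RPKM, mean ± SD over n = 12 libraries), Cyp2c55 was the most abundant at 448 ± 418, above 99.2% of the expressed genes. Cyp3a13 (170 ± 40.2) and Abcb1a (146 ± 61.5) followed. Cyp2c65 (78.2 ± 89.9), Cyp2s1 (47.3 ± 9.52), Nr1i2 (46.9 ± 4.97) and Abcg2 (26.5 ± 4.06) formed a middle range, still above 84.1% or more of the expressed genes. Ahr (2.58 ± 0.426) and Nr1i3 (1.31 ± 0.5) were lower, and Cyp1a1 was near 0 at 0.0239 ± 0.0383 RPKM. Neighbours in this order were not always apart: the libraries of Cyp3a13 (121 to 257 RPKM) overlapped those of Abcb1a (91.6 to 320 RPKM), and those of Nr1i2 (39.2 to 55.9 RPKM) lay inside those of Cyp2s1 (30.9 to 65.3 RPKM). PXR RNA was thus measured at a level far above CAR RNA in every library, since Nr1i3 did not pass 2.01 RPKM. RPKM divides by all annotated exons merged, for Nr1i3 4414 bases of a 4.9 kb locus, so a long merged length can lower a gene in this order. In CPM, Nr1i3 did not pass 8.85 and Nr1i2 did not fall below 100. Levels of Cyp2c55 and Cyp2c65 are uncertain to the extent that reads matched several Cyp2c genes. The same holds for Abcb1a and its neighbour Abcb1b (1.17 ± 0.866 RPKM). How many such reads there were, and how they were counted, was not examined.

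The genes also differed in how steady they were from library to library. The highest library held 31.2 times the CPM of the lowest for Cyp2c65, 15.9 times for Cyp2c55, 8.03 times for Nr1i3 and 3.49 times for Abcb1a. Nr1i2 varied least, with a ratio of 1.43, followed by Abcg2 (1.66), Ahr (1.71), Cyp2s1 (2.12) and Cyp3a13 (2.12). LFDHFB replicate 3 was the extreme library for these 4 variable genes. It held the most Cyp2c55, Cyp2c65 and Abcb1a RNA and the least Nr1i3 RNA. The part that its low Hox level has in these values was not tested.

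**Figure D1:**
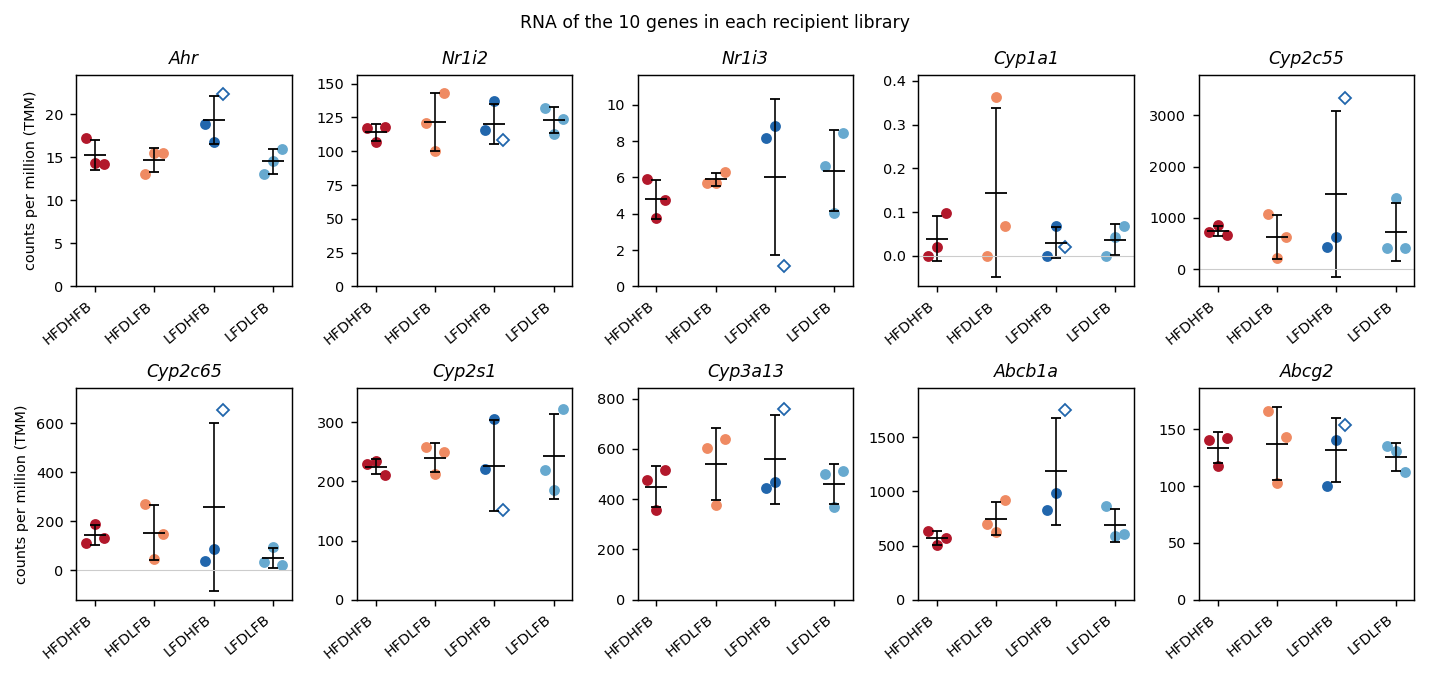
RNA of the 10 genes in each of the 12 recipient libraries, as TMM-normalised CPM on linear axes that differ between panels. Points are libraries, long bars group means, whiskers 1 SD (n = 3) and the open diamond LFDHFB replicate 3, which lies at 3340 CPM for Cyp2c55, 652 CPM for Cyp2c65, 1750 CPM for Abcb1a and 1.1 CPM for Nr1i3.

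Whether donor bacteria or diet shifted these genes was asked in 4 pairwise comparisons, in their averages and in the interaction. Cyp1a1 did not pass the filter on low counts, so 9 of 10 members were among the 15893 genes tested. With edgeR's quasi-likelihood test and Benjamini-Hochberg adjustment, no member was called at an adjusted p under 0.05 in any of these 7 comparisons, where the background was 0% of all genes. At an unadjusted p under 0.05, 0 of 9 members passed for HFDHFB against HFDLFB (9.07% of all genes), 3 for LFDHFB against LFDLFB (3.72%), 2 for HFDHFB against LFDHFB (7.46%) and 0 for HFDLFB against LFDLFB (5.33%). For the diets averaged over bacteria it was 1 member (2.94% of all genes), for the bacteria averaged over diets 0 (2.51%) and for the interaction 1 (11.3%). DESeq2's Wald test called 80, 0, 126, 9, 6, 4 and 73 genes in these comparisons in the same order. Among them was 1 member, Abcb1a in HFDHFB against LFDHFB, where DESeq2 called 1.05% of the genes it adjusted. Without LFDHFB replicate 3, members past the unadjusted edgeR threshold in the same order were 0, 0, 2, 1, 2, 0 and 1 of 9, the genes past it were 1830, 319, 1409, 1285, 1405, 510 and 1391 of 16073 tested, and 0 were called after adjustment. DESeq2 without it called 149, 0, 43, 67, 55, 2 and 4 genes, and 0 members. Groups that did not overlap were found for 0 of 9 members in HFDHFB against HFDLFB (13% of all genes), 1 in LFDHFB against LFDLFB (10.8%), 1 in HFDHFB against LFDHFB (11%) and 0 in HFDLFB against LFDLFB (11.7%). Comparisons that use the same group share its libraries and are given side by side only.

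Among the receptors, Nr1i2 (PXR, gene 18171, chr16:38248435-38294910, minus strand) was the steadiest. Its libraries held 117, 107 and 118 CPM in HFDHFB, 121, 100 and 143 in HFDLFB, 116, 137 and 108 in LFDHFB, and 132, 113 and 124 in LFDLFB. All 4 groups overlapped. Its log2 fold changes ranged from −0.09 ± 0.14 (SE, HFDHFB against HFDLFB, n = 3 and 3, edgeR adjusted p = 0.889) to −0.02 ± 0.14 (HFDLFB against LFDLFB, adjusted p = 0.986).

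Ahr (gene 11622, chr12:36182651-36219661, minus strand) was read at 17.2, 14.3 and 14.2 CPM in HFDHFB, 13, 15.5 and 15.5 in HFDLFB, 18.8, 16.8 and 22.3 in LFDHFB, and 13.1, 14.5 and 15.9 in LFDLFB. Each LFDHFB library lay above each LFDLFB library. The log2 difference was 0.41 ± 0.15 (SE, n = 3 and 3, edgeR adjusted p = 0.975), and it passed the unadjusted threshold. Without LFDHFB replicate 3 it was 0.3 ± 0.16 and did not. Between the diets in recipients of HFD bacteria, HFDHFB minus LFDHFB was −0.34 ± 0.15 (edgeR adjusted p = 0.658), again past the unadjusted threshold, or −0.23 ± 0.16 without that library (adjusted p = 0.637), when it was not. On the HFD the bacteria gave 0.05 ± 0.15 (adjusted p = 0.941). The interaction of diet and bacteria was −0.36 ± 0.21 (edgeR adjusted p = 0.548), so the effect of bacteria was not shown to differ between diets.

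Nr1i3 (CAR, gene 12355, chr1:173144101-173148976, plus strand) had few counts, and its libraries held 5.89, 3.77 and 4.74 CPM in HFDHFB, 5.68, 5.68 and 6.32 in HFDLFB, 8.19, 8.85 and 1.1 in LFDHFB, and 6.65, 4.04 and 8.46 in LFDLFB. LFDHFB replicate 3 lay below all other libraries, while replicates 1 and 2 of its group were among the 3 highest. With it, HFDHFB minus LFDHFB was −0.33 ± 0.57 on the log2 scale (edgeR adjusted p = 0.93). Without it, the difference was −0.83 ± 0.3 (edgeR adjusted p = 0.536) and the diets averaged over bacteria differed by −0.47 ± 0.2 (adjusted p = 0.566). Both then passed the unadjusted threshold.

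Of the enzymes, Cyp1a1 (gene 13076, chr9:57535735-57551631, plus strand) was at 0 counts in 4 of the 12 libraries and at 1 to 4 counts in 7 others, with 15 counts (0.363 CPM) in HFDLFB replicate 2. A count of 0 allows up to 3 counts, so this AHR target was at or near the detection limit in all groups, and counting error is all that such a limit covers. Other AHR targets varied widely in level: Cyp1b1 was read at 0.0616 ± 0.0377 RPKM, Ahrr at 0.0418 ± 0.0303, Tiparp at 6.25 ± 1.21 and Nqo1 at 20 ± 5.91 RPKM (n = 12).

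Cyp2c55 (gene 72082, chr19:39081509-39117177, plus strand) was read at 731, 851 and 660 CPM in HFDHFB, 1070, 210 and 617 in HFDLFB, 425, 629 and 3340 in LFDHFB, and 404, 1380 and 402 in LFDLFB. The groups overlapped in every pair, and single libraries set the group means. LFDHFB minus LFDLFB was 1 ± 0.79 on the log2 scale (edgeR adjusted p = 0.975) and −0.47 ± 0.64 without LFDHFB replicate 3. HFDHFB minus LFDHFB turned likewise from −0.97 ± 0.79 to 0.5 ± 0.64 (edgeR adjusted p = 0.851 and 0.791).

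Cyp2c65 (gene 72303, chr19:39135496-39168438, plus strand), the neighbour of Cyp2c55, was the most variable member. Its libraries held 111, 188 and 129 CPM in HFDHFB, 268, 44.3 and 146 in HFDLFB, 37.5, 84.7 and 652 in LFDHFB, and 32.8, 95.4 and 20.9 in LFDLFB. The HFDHFB libraries lay above LFDHFB replicates 1 and 2 and below replicate 3. HFDLFB replicate 2, the library with the most adipocyte marker RNA (3340 CPM), held the least Cyp2c55 of all libraries and the least Cyp2c65 of its group. The libraries next in adipocyte marker RNA, HFDLFB replicate 1 (1330 CPM) and LFDHFB replicate 3 (1040 CPM), held the most Cyp2c55 and Cyp2c65 of their groups. The part of adipocytes in these levels was not tested. LFDHFB minus LFDLFB was 2.38 ± 0.99 (edgeR adjusted p = 0.975), past the unadjusted threshold. It rested on LFDHFB replicate 3, without which it was 0.3 ± 0.72. HFDLFB minus LFDLFB, which does not use that library in its means, was 1.62 ± 0.97 (edgeR adjusted p = 0.881). With that library out of the shared estimate of the spread, the same difference had an SE of 0.66 and passed the unadjusted threshold (edgeR adjusted p = 0.612). The diets averaged over bacteria then differed by 1.42 ± 0.5 (edgeR adjusted p = 0.558), where all libraries gave 0.38 ± 0.67.

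Cyp2s1 (gene 74134, chr7:26587495-26601549, minus strand) and Cyp3a13 (gene 13113, chr5:138334161-138362847, minus strand) showed no group that stood apart. Cyp2s1 was read at 230, 235 and 210 CPM in HFDHFB, 259, 213 and 249 in HFDLFB, 221, 306 and 152 in LFDHFB, and 220, 185 and 323 in LFDLFB. Cyp3a13 was read at 474, 358 and 516 CPM in HFDHFB, 603, 375 and 641 in HFDLFB, 445, 468 and 760 in LFDHFB, and 501, 370 and 512 in LFDLFB. All groups overlapped for both genes. Of the 4 pairwise comparisons, the difference of Cyp3a13 farthest from 0 was HFDHFB minus LFDHFB at −0.31 ± 0.26 (edgeR adjusted p = 0.856), which became −0.02 ± 0.24 without LFDHFB replicate 3.

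Abcb1a (P-glycoprotein, gene 18671, chr5:8660092-8748570, plus strand) was the member with the clearest group differences. Its libraries held 633, 502 and 566 CPM in HFDHFB, 700, 629 and 921 in HFDLFB, 828, 982 and 1750 in LFDHFB, and 861, 591 and 610 in LFDLFB. Every HFDHFB library lay below every LFDHFB library. Summed markers of absorptive colonocytes also did not overlap, at 8600 to 10500 CPM in HFDHFB and 13300 to 15000 in LFDHFB. HFDLFB had 8940 to 12300 CPM of them and LFDLFB 9370 to 12900. Within LFDHFB, replicate 3 held the most Abcb1a RNA, but replicate 2 held more of these markers (15000 against 13400 CPM). The part of these cells in the Abcb1a levels was not tested. For Abcb1a, HFDHFB minus LFDHFB was −1.07 ± 0.28, a 2.09-fold lower level (n = 3 and 3, edgeR adjusted p = 0.321). Without LFDHFB replicate 3 it was −0.67 ± 0.21 (edgeR adjusted p = 0.472). Both passed the unadjusted threshold. DESeq2 gave −1.09 with an adjusted p of 0.0329, and −0.68 with an adjusted p of 0.216 without that library, so the DESeq2 call rested on it. LFDHFB minus LFDLFB was 0.79 ± 0.28 (edgeR adjusted p = 0.975), past the unadjusted threshold, or 0.4 ± 0.21 without that library, when it was not. HFDHFB minus HFDLFB had the opposite sign at −0.4 ± 0.28 (edgeR adjusted p = 0.699). The interaction was −1.19 ± 0.39 (edgeR adjusted p = 0.386), or −0.8 ± 0.29 without that library (adjusted p = 0.559), past the unadjusted threshold in both fits. The diets averaged over bacteria differed by −0.47 ± 0.2 (edgeR adjusted p = 1), or −0.27 ± 0.14 without that library.

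Abcg2 (gene 26357, chr6:58546666-58642445, plus strand) was read at 141, 118 and 142 CPM in HFDHFB, 166, 103 and 143 in HFDLFB, 99.8, 141 and 154 in LFDHFB, and 135, 131 and 112 in LFDLFB. All groups overlapped, and its pairwise log2 differences lay between −0.04 ± 0.2 and 0.13 ± 0.2 (n = 3 and 3, edgeR adjusted p from 0.939 to 0.988).

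The members did not vary as a single unit. Cyp2c55 and Cyp2c65 varied together (Pearson r of log2 CPM = 0.84, Spearman rho = 0.8, n = 12, and r = 0.72 without LFDHFB replicate 3), as did Nr1i3 and Cyp2s1 (r = 0.81, rho = 0.69, 0.67 without that library). Nr1i3 ran against Cyp2c55 (r = −0.79, rho = −0.66, −0.51 without that library) and Cyp2c65 (r = −0.77, rho = −0.69, −0.59). Cyp3a13 and Abcb1a (r = 0.72, rho = 0.52, 0.5 without that library) and Cyp2c65 and Abcg2 (r = 0.71, rho = 0.73, 0.68) also varied together. Other relations among the 36 pairs turned on that library: Nr1i3 and Abcb1a went from r = −0.47 with it to 0.72 without it, Nr1i2 and Abcb1a from 0.22 to 0.77, Cyp2c55 and Abcb1a from 0.46 to −0.21, and Ahr and Abcb1a from 0.67 to 0.27. These values are descriptions over libraries that share their diet and bacteria groups. Reads that match both Cyp2c genes could add to the first, which was not tested.

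Some members also moved with the posterior Hox level among the 11 libraries other than LFDHFB replicate 3. This relation was looked at after the data were seen, and no test is given. Nr1i3 was higher where the Hox sum was higher (r = 0.73, rho = 0.79, n = 11, and r = 0.85 without the 2 libraries farthest from the median Hox level). Cyp2c65 was lower there (r = −0.75, rho = −0.76, −0.64 without the 2 farthest), as was Cyp2c55 (r = −0.56, rho = −0.73, −0.5). Abcb1a gave r = 0.55 (rho = 0.47, 0.62 without the 2 farthest), and the high Abcb1a level of LFDHFB replicate 3 stood beside the lowest Hox sum. In the LFDLFB group, the library with the least Hox RNA (560 CPM) held the most Cyp2c55 and Cyp2c65 RNA and the least Nr1i3 RNA. In HFDLFB that library (replicate 1, 437 CPM) also held the most Cyp2c55 and Cyp2c65. In HFDHFB it (replicate 3, 477 CPM) held the least Cyp2c55, and neither the most Cyp2c65 nor the least Nr1i3. What part of any group difference follows the Hox level was not tested.

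**Figure D2:**
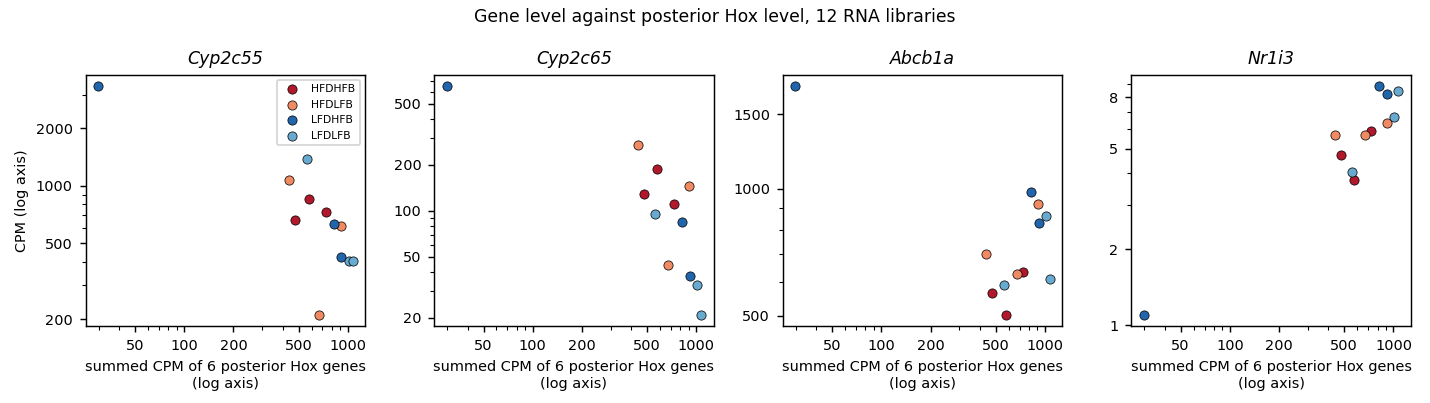
CPM of Cyp2c55, Cyp2c65, Abcb1a and Nr1i3 against the summed CPM of 6 posterior Hox genes, both on log axes, 1 point per RNA library coloured by recipient group. LFDHFB replicate 3 lies alone at a Hox sum of 29.8 CPM, and among the other 11 libraries (437 to 1070 CPM) Cyp2c55 and Cyp2c65 tend to be lower and Nr1i3 higher where the Hox sum is higher.

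The genes whose log2 CPM ran closest to the members with the widest span of group means were named by a fixed rule. For Cyp2c65 these were Prkg2 (r = 0.99), Slc13a1 (r = 0.99) and Car8 (r = 0.98), all at 0.97 or more without LFDHFB replicate 3. For Cyp2c55 they were Mfsd6l (r = 0.98), Abcb6 (r = 0.97) and the carboxylesterase Ces2a (r = 0.96), all at 0.94 or more without it. For Abcb1a they were Tbc1d15, Cipc and Rmnd5a (r = 0.91 each), of which Cipc kept r = 0.91 without that library and the other two had 0.78. Each r is over 12 libraries and was the highest among 15893 genes, so it is a description.

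The wider pathway gave 0 genes at an edgeR adjusted p under 0.05 in each of 10 lists and 7 comparisons, with or without LFDHFB replicate 3. The counts that follow are at an unadjusted p under 0.05, to be read against the 9.07%, 3.72%, 7.46% and 5.33% of all genes in HFDHFB against HFDLFB, LFDHFB against LFDLFB, HFDHFB against LFDHFB and HFDLFB against LFDLFB. For the averaged diets, the averaged bacteria and the interaction these shares were 2.94%, 2.51% and 11.3%. Without LFDHFB replicate 3, 1830, 319, 1409, 1285, 1405, 510 and 1391 of 16073 genes passed in the same order of comparisons. Some genes stand in more than 1 list.

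Among the AHR partners and targets (13 tested of 14), 0 genes were higher and 2 lower in HFDHFB against HFDLFB, 1 higher and 0 lower in LFDHFB against LFDLFB, 0 higher and 2 lower in HFDHFB against LFDHFB, and 2 higher and 0 lower in HFDLFB against LFDLFB. The median log2 fold change for LFDHFB against LFDLFB was 0.4, and 0.04 without LFDHFB replicate 3. The chaperones that hold AHR in the cytoplasm were the most abundant of this list, with Hsp90ab1 at 293 ± 27.8 RPKM and Hsp90aa1 at 31.8 ± 5.8 RPKM (n = 12).

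Of the PXR and CAR partners and targets, 19 of 27 were tested. In the same order of comparisons, 1 was higher and 0 lower, 2 higher and 1 lower, 0 higher and 1 lower, and 0 higher and 2 lower. Without LFDHFB replicate 3, LFDHFB against LFDLFB had 0 higher and 0 lower. Ces2c (221 ± 37.1 RPKM) and Sult1a1 (210 ± 50.8 RPKM), a carboxylesterase and a sulfotransferase, led this list. Ugt1a1, which glucuronidates bilirubin and drugs, was read at 10.6, 17.5 and 120 RPKM in the LFDHFB libraries, the last again being replicate 3.

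The other P450 enzymes of families 1 to 3 had 25 of 53 genes tested. There were 0 higher and 1 lower in HFDHFB against HFDLFB, 4 higher and 0 lower in LFDHFB against LFDLFB, 0 and 0 in HFDHFB against LFDHFB, and 3 higher and 0 lower in HFDLFB against LFDLFB. Without LFDHFB replicate 3, LFDHFB against LFDLFB had 1 higher and 0 lower, HFDHFB against LFDHFB 0 higher and 6 lower, and HFDLFB against LFDLFB 5 higher and 1 lower. Cyp2d34 (251 ± 52.6 RPKM) and Cyp2d12 (105 ± 51.3 RPKM) were the highest. In the LFDHFB libraries Cyp2d12 was read at 145, 186 and 8.62 RPKM and Cyp2c68 at 96.3, 60.8 and 6.09 RPKM. In replicate 3 these were low, while Cyp2c55 and Cyp2c65 were high.

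The P450 redox partners had 4 genes tested. Pgrmc1, a heme-binding partner of P450 enzymes, was read at 61.9 ± 13.2 RPKM and the electron donor Por at 53.2 ± 7.57 RPKM. Cyb5a had no RPKM, so the order covers the other 3. In these genes 0 were higher and 1 lower in HFDHFB against HFDLFB, 1 higher and 0 lower in HFDLFB against LFDLFB, and 0 passed in the other pairwise comparisons. The averaged diets had 1 higher and the averaged bacteria 1 lower.

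Other exporters were led by Abcc3 (31.1 ± 5.93 RPKM), which exports conjugates to the blood side, and Abcc1 (3.29 ± 0.591 RPKM). Of 9 tested, 1 was lower in HFDHFB against HFDLFB, 1 lower in HFDHFB against LFDHFB and 1 higher in HFDLFB against LFDLFB, with 0 in LFDHFB against LFDLFB. The averages and the interaction had 1 lower each, and without LFDHFB replicate 3 the averaged diets had 3 lower.

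Conjugating enzymes were abundant. Ugt2b34 (185 ± 43.3 RPKM) and Ugt1a7c (32.6 ± 6.63) led the glucuronosyltransferases. Of 9 tested, 2 were higher in LFDHFB against LFDLFB with a median log2 fold change of 1.03, which became 0 higher and a median of 0.06 without LFDHFB replicate 3. Ugt2b5, for instance, was read at 1.36, 4.02 and 27.2 RPKM in the LFDHFB libraries. In HFDHFB against HFDLFB and in HFDHFB against LFDHFB 1 was lower, and in HFDLFB against LFDLFB 0 passed.

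Sult1a1 and Sult1d1 (188 ± 39.2 RPKM) led the 8 sulfotransferases tested, of which 2 were higher in HFDHFB against HFDLFB and 0 passed in the other pairwise comparisons. Without LFDHFB replicate 3, 2 were also higher in HFDHFB against LFDHFB. Mgst3 (650 ± 93.8 RPKM) and Gsto1 (304 ± 29.1) led the 23 glutathione transferases tested. Of these, 1 was higher and 2 lower in HFDHFB against HFDLFB, 0 higher and 4 lower in LFDHFB against LFDLFB (1 lower without LFDHFB replicate 3), 2 higher and 0 lower in HFDHFB against LFDHFB, and 1 higher and 1 lower in HFDLFB against LFDLFB (1 higher and 4 lower without it).

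Ces2c and Ces2e (173 ± 58.9 RPKM) led the 19 other conjugating and hydrolysing enzymes tested. In these, 0 were higher and 1 lower in HFDHFB against HFDLFB (0 higher and 3 lower without LFDHFB replicate 3), 4 higher and 0 lower in LFDHFB against LFDLFB (2 higher without it), 0 in HFDHFB against LFDHFB and 3 higher and 0 lower in HFDLFB against LFDLFB. Taldo1 (165 ± 27.1 RPKM) and Srxn1 (78.6 ± 11.2) led the 11 genes of the NRF2 response, with 1 lower in HFDHFB against HFDLFB and 0 in the other pairwise comparisons. For the interaction (11.3% of all genes), the AHR list had 0 higher and 4 lower, and the PXR and CAR list 4 and 0. The glutathione transferases had 5 and 0, the sulfotransferases 2 and 0, and the other P450 enzymes 0 and 2. The other conjugating enzymes had 0 and 3, the exporters and glucuronosyltransferases 0 and 1 each, and the remaining lists 0. Without LFDHFB replicate 3, PXR and CAR had 2 and 0, other P450 enzymes 0 and 6, and glutathione transferases 4 and 1.

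The chromatin of these loci followed another order than their RNA. H3K27ac peaks covered 39.1% of the Nr1i2 window on average over 23 libraries, more than in 94.1% of the windows of all genes, whose median was 5.08%. Cyp2s1 (31.6%), Abcb1a (19.6%), Cyp3a13 (19%), Cyp2c55 (18%), Nr1i3 (14.9%) and Cyp1a1 (12.3%) followed, and Abcg2 (9.76%), Ahr (7.58%) and Cyp2c65 (6.65%) were closest to the median. H3K4me1 peaks covered 50.8% of the Cyp2s1 window and 46.7% of the Nr1i2 window over 12 libraries, against a median of 13% over all windows. The window of Cyp1a1, whose RNA was near 0, carried both marks, with H3K4me1 over 28.5% of it. The only H3K27ac region there that was called in every library began at base 57555601, past the locus end at 57551631. H3K27ac regions inside the Cyp1a1 locus were called in part of the libraries. The window of Cyp2c65, a gene of high RNA, carried little of either mark, with H3K4me1 over 12.5%. Windows can hold neighbouring genes too, and those of Cyp2c55 and Cyp2c65 overlap.

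At the start of the locus as the count table gives it, 7 of the 10 genes (Ahr, Nr1i2, Cyp2c55, Cyp2c65, Cyp2s1, Cyp3a13 and Abcb1a) had an H3K27ac peak in all 12 long-term and all 11 recipient libraries. Nr1i3 had it in 7 of 12 and 7 of 11. Cyp1a1 and Abcg2 had it in 0 of 12 and 0 of 11, but both loci begin upstream of another annotated start. At the inner Abcg2 start (chromosome 6, base 58590558) H3K27ac was present in 12 of 12 and 11 of 11 libraries and H3K4me1 in 10 of 12. At the inner Cyp1a1 start (chromosome 9, base 57545420) H3K27ac was present in 0 of 12 and 0 of 11 libraries and H3K4me1 in 3 of 12. H3K4me1 covered the start of the table's locus in all 12 libraries for Nr1i3, Cyp2c55, Cyp2c65, Cyp2s1 and Cyp3a13, in 7 for Nr1i2, 6 for Cyp1a1, 5 for Abcb1a, 1 for Abcg2 and 0 for Ahr.

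Diet was then compared through the covered length of each window, since the deposited lists give no peak heights. For the long-term diets, 0 of 10 members had an exact permutation p under 0.05 for H3K27ac (4.15% of all windows tested) or for H3K4me1 (3.42%). The diet effect differed by sex at this threshold in 0 of 10 members for H3K27ac (3.63% of windows) and 0 of 10 for H3K4me1 (4.09%). Between HFB and LFB recipients it was 0 of 10 (3.31%). Between HFD and LFD recipients it was 1 of 10, Nr1i3, where 15% of all windows passed. After adjustment over all windows 0 passed in each of these 6 comparisons, and Nr1i3 had an adjusted p of 0.291.

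At Nr1i3, H3K27ac covered 3.6 and 6.1 kb in the HFDHFB libraries and 3.1 to 5.8 kb in HFDLFB, against 2 to 2.8 kb in LFDHFB and 2 to 4.4 kb in LFDLFB. The HFD recipients were higher on average, but the diets overlapped. The means were 4.5 ± 1.36 kb (SD, n = 5) and 2.8 ± 0.955 kb (n = 6), and the diet difference averaged over bacteria was 1.76 kb (two-sided exact permutation p = 0.04). Leaving out 1 library at a time gave differences of 1.13 to 2.38 kb with exact p from 0.02 to 0.12, and p stayed under 0.05 only without HFDLFB replicate 1 or LFDLFB replicate 1. H3K27ac peaks covered 107 to 132 Mb of the genome in the HFD recipients and 93.1 to 117 Mb in the LFD recipients, and the part of this in the Nr1i3 difference was not tested.

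The remaining members nearest to the threshold were Cyp2c65, Abcg2 and Cyp3a13. At Cyp2c65, H3K27ac covered 4.03 ± 0.463 kb on the long-term HFD and 3.17 ± 0.686 kb on the LFD (SD, n = 6 and 6, exact permutation p = 0.055). At Abcg2, females had 12 to 16.2 kb on the HFD and 5.6 to 11 kb on the LFD, while males had 7.8 to 15 kb and 11.6 to 15 kb. The sexes differed in the diet effect by 7 kb (exact permutation p = 0.06, n = 3 per sex and diet). At Cyp3a13, the HFDHFB libraries had 14.6 and 11.8 kb and the HFDLFB libraries 9.6, 7.2 and 8.2 kb. The LFD-fed recipients of both bacteria had 9.27 ± 1.27 kb (SD, n = 6). Over both diets, HFB recipients had 10.9 ± 2.34 kb and LFB recipients 8.73 ± 1.49 kb (SD). The HFB minus LFB difference over both diets was 2.57 kb (exact permutation p = 0.07, n = 5 and 6). It was not tested on each diet alone. These 3 members were picked for their small p-values, and the share of all windows with groups as far apart was not counted.

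**Figure D3:**
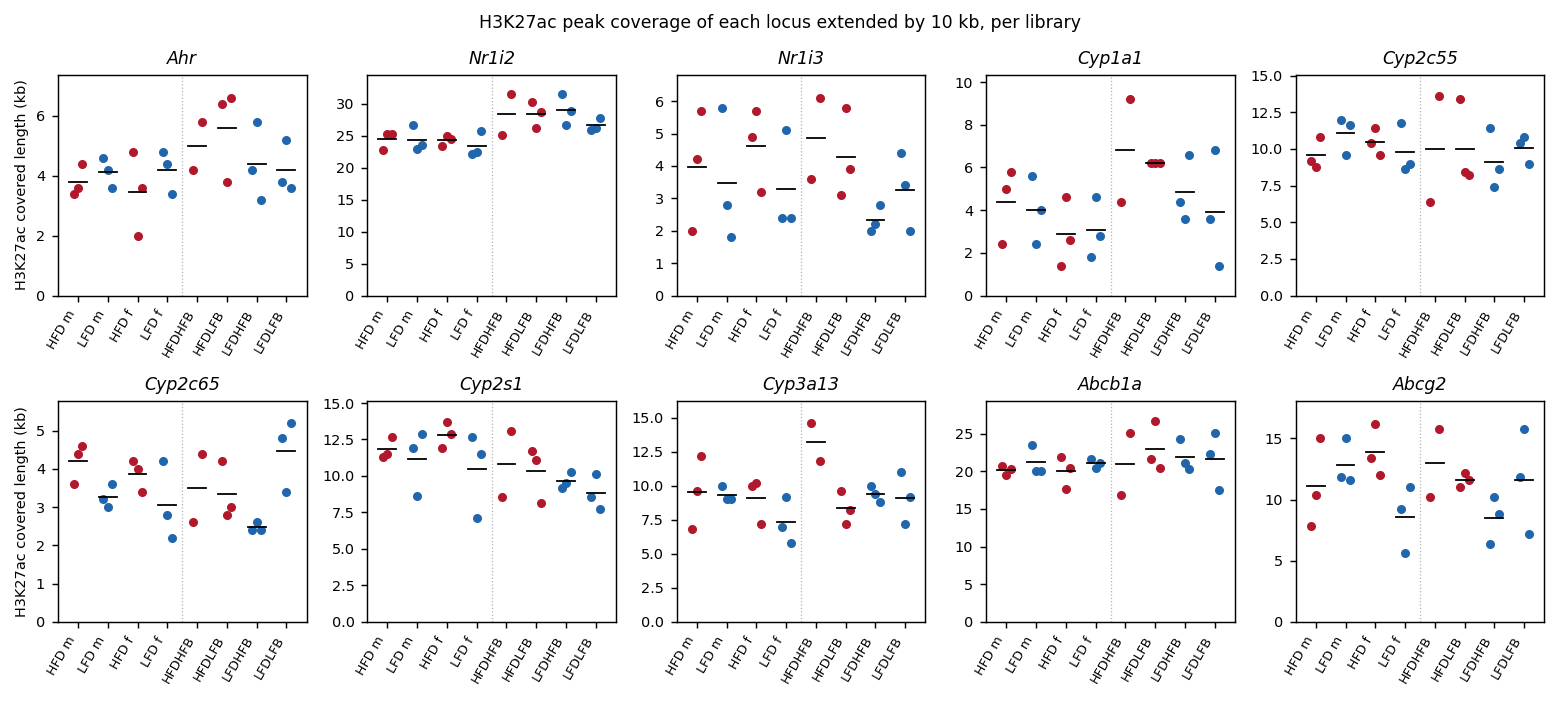
Length covered by H3K27ac peaks (kb) in the window of each gene, 1 point per library, for long-term diets (left of the dotted line, m for male and f for female) and recipients (right), with HFD in red, LFD in blue and bars at group means. Nr1i2 holds 22.1 to 31.5 kb in every library, and HFD-fed recipients average 4.5 kb at Nr1i3 against 2.8 kb in LFD-fed recipients.

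Among the member windows, Cyp3a13 alone held regions that were called in all libraries of 1 group and absent from the whole group it was compared with. An H3K4me1 region at chr5:138342201-138345200, inside the gene locus, had a peak in 3 of 3 HFD females and 0 of 3 LFD females, the only such region among 45 H3K4me1 regions in the windows (0.68% of all 82057 regions were exclusive in either direction). The overlapping region in males (chr5:138343001-138345200) had a peak in 1 of 3 HFD and 2 of 3 LFD libraries. An H3K27ac region at chr5:138352801-138355000, also inside the locus, had a peak in 2 of 2 HFDHFB and 0 of 3 HFDLFB libraries, the only such region among 48 (1.68% of 61972 regions). In the LFD-fed recipients the latter region had a peak in 1 of 3 LFDHFB and 1 of 3 LFDLFB libraries. On the long-term diets, overlapping regions had a peak in 1 of 3 HFD and 0 of 3 LFD males. In females they had one in 2 of 3 HFD and 0 of 3 LFD libraries.

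HNF4α peaks in the windows merged into 38 sites, and every member had at least 1. A site with a peak in all 4 libraries was present in 7 of 10 windows (all except Ahr, Cyp1a1 and Cyp2c65), against 20.7% of the windows of all genes, and any site in 10 of 10, against 62.6%. The windows differ in length, so sites next to a start were counted too. Within 500 bp of an annotated protein-coding start, 9 of 10 members had a site in at least 1 library (all except Cyp1a1), against 31.8% of 22238 genes. A 4-library site lay that close in 5 of 10 (Nr1i2, Nr1i3, Cyp2c55, Cyp2s1 and Cyp3a13), against 4.03% of the genes. The members were not matched to the others for expression, so the shares are a description.

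By role, the receptors differed. Nr1i2 had 3 sites in all 4 libraries, at −3.34, −0.06 and 12.1 kb from the start, each with H3K27ac in 6 of 6 male libraries and 11 of 11 recipient libraries. Nr1i3 had its only site at −0.02 kb, in all 4 libraries, with H3K27ac in 3 of 6 male libraries and H3K4me1 in 6 of 6. Ahr had a single site at 0.26 kb, in HFD replicate 1 only, next to the start of the neighbouring gene model Gm17436 as well.

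Among the enzymes, Cyp2c55 had 4-library sites at −0.13 and −1.74 kb and a 3-library site at −8.12 kb. Cyp2c65 had none in all 4 libraries, its start site being absent from HFD replicate 2. Cyp3a13 had 4-library sites at −0.21 and −5.14 kb, and Cyp2s1 at −0.23 and −8.7 kb. The Cyp2s1 site at −8.7 kb lay nearer to a start of Gm4613 (3.66 kb) than to one of Cyp2s1 (−8.32 kb). In the Cyp2s1 window, only the site at −0.23 kb had Cyp2s1 as its nearest start, and the others had Axl or Gm4613. The only site of Cyp1a1 lay in an intron at 4.12 kb from the locus start, which is −5.56 kb from its inner start, in 3 libraries, with H3K27ac in 4 of 6 male libraries. Of the pumps, Abcb1a had 7 sites and Abcg2 had 8. The Abcb1a start site lacked a peak in LFD replicate 2, and its 4-library sites lay at −9.14 and 4.8 kb. The only 4-library site of Abcg2 lay at 82.05 kb from the upstream start, in an intron.

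**Figure D4:**
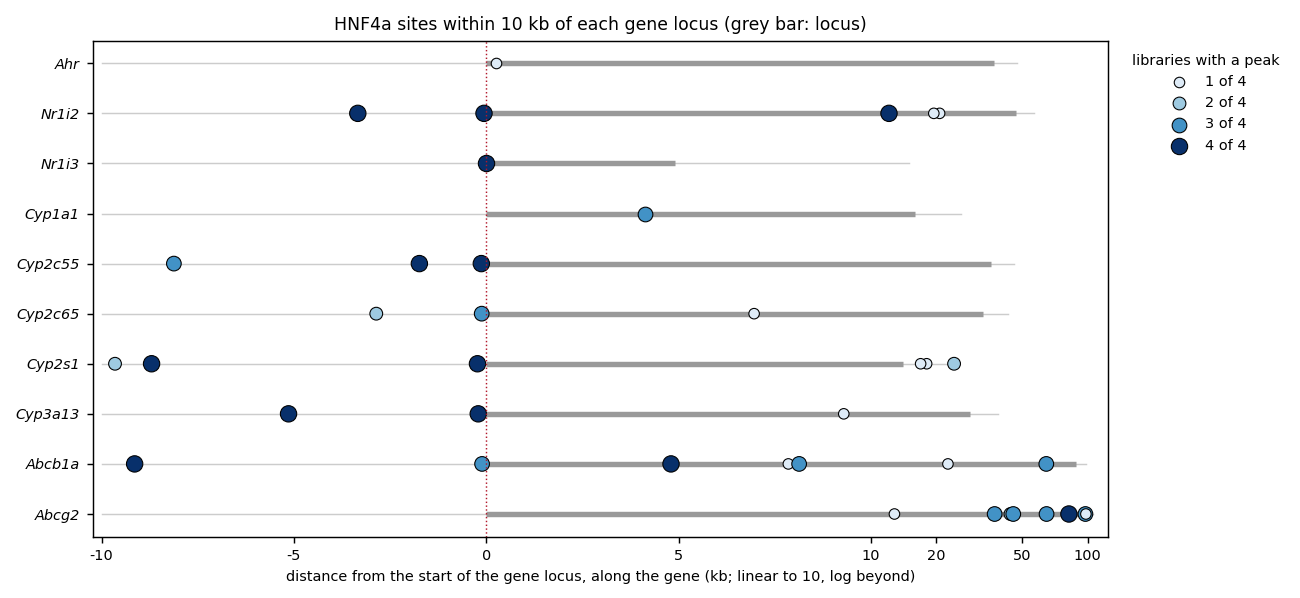
HNF4α sites in the window of each gene by distance from the start of its locus along the gene, in kb, with a linear axis to 10 kb and a log axis beyond. Circles are merged sites, larger and darker with more of the 4 libraries holding a peak, and grey bars are the loci. Sites in all 4 libraries lie next to the start of Nr1i2, Nr1i3, Cyp2c55, Cyp2s1 and Cyp3a13.

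The number of member peaks was slightly lower in both HFD libraries than in both LFD libraries, in a design too small for a test to pass 0.05. The HFD libraries had 23 and 25 peaks in the windows and the LFD libraries 26 and 26 (difference of means −2, two-sided exact permutation p = 0.333, which is the smallest that 2 against 2 libraries can give). Sites found in both replicates numbered 17 on the HFD and 19 on the LFD, of which 13 were found on both diets. None of the 38 sites was exclusive to a diet, where 5.03% of all 49525 sites were. The LFD libraries held 27766 and 21308 peaks genome-wide and the HFD libraries 22640 and 22506.

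The letters of these sites were searched on both strands. The HNF4α forms CAAAGGTCA and CAAAGTTCA contain the half-sites AGGTCA and AGTTCA of the receptor elements below. The HNF4α core occurred in 3 of 38 sites (7.89%), namely the Cyp2c65 start, the Abcb1a start and the Abcb1a intron at 8.13 kb, against 12.8% of all HNF4α sites and 27.1% of those in 4 libraries. No 4-library member site held it, as the stretches printed for Nr1i2, Nr1i3, Cyp2c55 and Cyp3a13 show. GCGTG occurred in 5 of 38 sites (13.2%), against 18.9% of all sites, and the site at the inner Abcg2 start held 2 copies. The PXR and CAR elements, searched as repeats of AGGTCA or AGTTCA in the same direction with 4 bases between or pointing apart with 6 bases between, occurred in 0 of 38 sites, against 0.0404% and 0.0303% of all sites. In the promoters given by RefSeq (GRCm38.p6, 9 of 10 members matched), GCGTG was present for Cyp1a1 and in 1 of the 3 Abcg2 promoters, against 32.4% of all promoters. The HNF4α core was present for Cyp2c65 and Abcb1a, against 1.85%. The Abcb1a promoter (chr5:8566841-8567140 in GRCm38.p6, with CAAAGTTCA) has other letters than the Abcb1a start stretch printed above, which holds CAAAGGTCA. It belongs to another start, and its core is not the one under the HNF4α peak. A match is a description of letters, and a lack of one says only that these letters are not in the window searched.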

How the data were processed

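RNA and chromatin of mouse colon epithelium were profiled in 84 samples, inputs included. For RNA, the authors aligned reads with STAR 2.5 and deposited raw read counts per gene from featureCounts 1.5.0-p1. For ChIP, reads were aligned to mm9 with Bowtie 0.12.8, de-duplicated with Picard 1.110, and peaks were called per library with SICER (histone marks) or HOMER (HNF4α). The deposited peak lists hold coordinates only, so peak height and depth are unknown.

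Counts were fitted with edgeR 4.0.16 (R 4.3.3) over 12 libraries in 4 groups, after filterByExpr and TMM scaling, with quasi-likelihood tests and Benjamini-Hochberg adjustment over all 15893 genes kept. DESeq2 1.42.0 was an alternative. CPM values (counts scaled to a common library size) used TMM, log2 CPM used a prior count of 2, and RPKM used merged exon length. Libraries held 39904191 to 48026846 counts. The labels do not say that replicates were separate animals, so p-values measure the spread between these libraries, which may be technical. No 2 replicates were alike within sampling noise.

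Windows were loci extended by 10 kb. Covered length was compared with two-sided exact permutation tests within sex (long-term diets) or within the other factor (recipients), adjusted over all windows. Peaks that share 1 base were merged into regions. Sequences were read from NCBIM37, and promoters came from RefSeq (GRCm38.p6). The scripts were tested on simulated data.

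The members and gene lists were chosen with earlier results of these data known. In the text, the 10 members are named, with the 2 most abundant genes of each list, the closest 3 genes by correlation of the 3 members with the widest span of group means, and any gene singled out after its values were seen (Ugt1a1, Ugt2b5, Cyp2c68, Cyb5a, Cyp1b1, Ahrr, Tiparp, Nqo1, Abcb1b). The Hox relation was also chosen after the values were seen. Same-numbered libraries of different groups did not deviate together (r from −0.59 to 0.45 over 18 pairs), so no block was used. Alternatives were no filter, a stricter filter, RLE scaling, fits to only the 2 groups compared, DESeq2, a replicate block, windows of 1 and 50 kb, peak numbers in place of length, and leaving out each library. List counts and DESeq2 fits without LFDHFB replicate 3 were added after seeing the data.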

Additional observations from a re-analysis of the deposited data

How the results depend on the processing

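With edgeR, 0 members were called in all 7 RNA comparisons under each filter, scaling and choice of groups in the fit, and without each library. No pairing is given by the labels, and a fit with the replicate number as a block also called 0 members. DESeq2 called 1 member, Abcb1a in HFDHFB against LFDHFB, and 0 elsewhere. Of 25 single results followed, 12 turned sign without 1 library and 1 under another setting, and the cause was not tested. Without 1 library, log2 differences ran from −0.04 to 0.1 (Ahr), −0.17 to 0.85 (Cyp2c55) and −0.53 to 0.58 (Cyp2c65) for HFDHFB against HFDLFB. For LFDHFB against LFDLFB they ran from −0.45 to 0.42 (Nr1i3) and −0.47 to 1.86 (Cyp2c55). For HFDHFB against LFDHFB they ran from −0.83 to 0.02 (Nr1i3), −1.41 to 0.5 (Cyp2c55), −1.37 to 1.22 (Cyp2c65) and −1.27 to −0.67 (Abcb1a). For HFDLFB against LFDLFB they ran from −0.03 to 0.11 (Ahr), −0.36 to 0.16 (Nr1i3), −0.82 to 0.66 (Cyp2c55) and −0.05 to 0.34 (Abcb1a). DESeq2 without LFDHFB replicate 3 gave 0.41 (Nr1i3) and −0.48 (Cyp2c55) for LFDHFB against LFDLFB, and 0.5 (Cyp2c55) and 1.21 (Cyp2c65) for HFDHFB against LFDHFB. For the other 4 members, 11 of 16 signs turned without 1 library and 4 under another setting, within −0.46 to 0.43.

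Members with a coverage p under 0.05 were 2 by peak number and 0 to 1 without 1 library for H3K27ac by long-term diet, 0 to 1 without 1 library for its sex difference, 1 with 1 kb windows for H3K4me1 by diet, and 1 with 1 kb windows and 1 by peak number for its sex difference. For bacteria they were 1 with 1 kb windows and 0 to 1 without 1 library. For recipients' diet they were 0 with 1 kb windows, 0 by peak number and 0 to 1 without 1 library. The Cyp2c65 difference by long-term diet turned to −0.216 kb with 50 kb windows. With a peak in 2 or more libraries of 1 group and none of the other, exclusive regions were 1 (male H3K27ac), 2 (female H3K27ac), 1 (male H3K4me1), 2 (female H3K4me1), 2 (HFDHFB and HFDLFB) and 2 (LFDHFB and LFDLFB). With 50 kb windows they were 1 (female H3K27ac), 1 (LFDHFB and LFDLFB) and 2 (HNF4α). The HNF4α peak difference was −1 and −3 without replicate 1 or 2 of both diets, 0 with 1 kb and −0.5 with 50 kb windows. Peak lists without heights limit what a difference in coverage can show.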
